A study of Mus musculus with 4 samples.

Results

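Aldh1a3, Cck, Gast, Serpina7, Dapl1, Fkbp11, Nucb2 and Pappa2 are 8 of the 32227 genes listed in the count matrices of an islet single-cell RNA-Seq study. They were chosen by their measured levels in β cells of the libraries described here, so the differences between libraries given for them are a description. The genes were matched by symbol, and each symbol had 1 row. They are spoken of together as genes of stressed or dedifferentiating β cells, a name that was set beside the data below. Among β, α, δ, PP and pooled nonendocrine cells of control 2, 7 of the 8 had their highest measured level in β cells. Counting error left this open for Gast and Cck, and cells left unclassed are given below. All 8 stood lower in each mutant library than in the control library. Over single β cells of control 2 the correlations between them were low. For Fkbp11, Nucb2 and Gast, counts were too noisy for a low correlation to show a lack of relation.

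The mutant mice carried a 12-bp insertion made with CRISPR-Cas9 in an exon of Myt3 (listed as St18), a zinc-finger transcription factor gene, where it disrupts an upstream open reading frame. The founder line had been outcrossed, and mice homozygous for the mutant allele (mutant) or for the wild-type allele (control) were compared. The insertion was not limited to islet cells, and each sample pooled islets of males and females. The mice were kept on a high-fat diet and their cells were captured by InDrop-Seq in the methods, but the labels name normal diet and PIPseq instead. The age of the mice is not given in the labels. Expression was analysed in mutant 1, mutant 2 and control 2. For control 1, a list of barcodes was used and expression was not analysed here. With 1 control library, genotype, library, depth and batch cannot be told apart, and the batch entry of control 2, which is no calendar date, has another last figure than those of the remaining samples. The insertion itself cannot be read from gene counts.

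Mutant 1, mutant 2 and control 2 held 8448466, 9013499 and 36985253 UMIs (unique molecular identifiers, counted mRNA molecules). The kept cells numbered 2940, 2040 and 2283, and no cell barcode was shared between libraries. β cells, defined by at least 20% of their UMIs from Ins1 and Ins2, numbered 2165, 1512 and 2003. Their median depth was 2883, 4606 and 16249 UMIs, and their median insulin share was 39.9%, 42.0% and 55.1% of UMIs. All 9 β markers fixed for the check were detected in the β cells of each library. Ins1 and Ins2, which define the class, are among them. All α, endothelial, leukocyte, stromal, acinar and duct markers were also detected there, so detection alone does not tell the classes apart. The summed level of 7 α markers in β cells, as CPM (UMIs scaled to a common library total), was lower in control 2 (2288 CPM) than in the mutants (3355 and 3899 CPM), as were the sums of 7 endothelial and 8 leukocyte markers (51.1 and 50.03 CPM against 107 to 134 and 82.4 to 106 CPM). The α markers include Ttr and Gc, with 68888 and 5144 UMIs in β cells of control 2, 4394 and 148 in mutant 1 and 5339 and 188 in mutant 2. These genes made up most of the α sum in control 2 and a small part in the mutants. The α sum thus understates how far the remaining α markers differed between the libraries. The 7 acinar markers summed to 36.7, 23.5 and 52.6 CPM. Without β cells that hold at least 2 acinar UMIs, the median ratio of 6 of the genes given below was -3.97 in place of -4.03. The part of the other marker lists in the values below was not tested.

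β cells under chronic secretory demand can lose features of the mature state, a process called dedifferentiation, in which insulin and β-cell transcription factors decline and genes normally silent in mature β cells appear. Aldh1a3, which encodes an enzyme that makes retinoic acid from retinaldehyde, is a widely used marker of this state. Secretory demand also loads the endoplasmic reticulum (ER), where proinsulin folds with the help of chaperones and prolyl isomerases such as Fkbp11.

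The 8 genes lie apart in the genome. The matrices hold gene names without coordinates, so positions are those of GENCODE vM21 on GRCm38, whereas the submitters' processing notes name GRCm39. Aldh1a3 lies at chr7:66390890-66427517 on the minus strand and Nucb2 at chr7:116504369-116540584 on the plus strand. Cck lies at chr9:121489824-121495694 (minus), Gast at chr11:100334407-100336996 (plus) and Serpina7 at chrX:139079257-139085236 (minus). Dapl1 lies at chr2:59484653-59505020 (plus), Fkbp11 at chr15:98724366-98728198 (minus) and Pappa2 at chr1:158711727-158980490 (minus).

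Cck and Gast encode cholecystokinin and gastrin, peptide hormones that share their receptor-binding carboxy-terminal end. To show how near the pair is, the 30 coding bases around that end are given 5′ to 3′ from GENCODE transcripts on GRCm38, with capitals for the 4 codons of the shared end. Cck lies on the minus strand at chr9:121490098-121490127 and Gast on the plus strand at chr11:100336849-100336878.
Cck: tacatgggcTGGATGGATTTTggccggcgc
Gast: gcctacggaTGGATGGACTTTggccgccgc
Of these 30 bases 22 were identical, and of the 12 bases in capitals 11 were. The shared end is at codons 100 to 103 of the 115 codons of Cck and at codons 89 to 92 of the 101 codons of Gast.

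The 250 bases before the annotated start were examined because the 8 genes differ in the same direction between the libraries. RefSeq sequences on GRCm38.p6 were at hand for 7 of the genes, and those of Cck, Gast and Dapl1 are printed, since Cck and Gast were nearly or wholly without UMIs in the mutants and Dapl1 had the most UMIs of the 8 in control 2. Capitals mark any match on either strand. The letters TGACG are the core of a cyclic AMP response element. The letters CACGTG form an E-box that many transcription factors can bind. The letters CCACG are a part of the ER stress element. The letters TATAAA stand for a TATA box, which helps place the start of transcription. The letters CCAAT, the last motif searched, are a common promoter box. The windows are chr9:121495695-121495944 on the minus strand for Cck, chr11:100334157-100334406 on the plus strand for Gast and chr2:59484403-59484652 on the plus strand for Dapl1.
Cck: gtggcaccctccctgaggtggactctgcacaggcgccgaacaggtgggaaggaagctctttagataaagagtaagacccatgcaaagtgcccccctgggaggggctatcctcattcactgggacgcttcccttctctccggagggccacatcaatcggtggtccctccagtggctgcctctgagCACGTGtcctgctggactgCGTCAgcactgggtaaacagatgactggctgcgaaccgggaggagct
Gast: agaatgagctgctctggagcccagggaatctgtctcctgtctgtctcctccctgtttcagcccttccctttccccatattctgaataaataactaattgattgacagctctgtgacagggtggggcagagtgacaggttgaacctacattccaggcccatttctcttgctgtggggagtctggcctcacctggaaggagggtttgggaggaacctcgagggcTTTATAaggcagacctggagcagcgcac
Dapl1: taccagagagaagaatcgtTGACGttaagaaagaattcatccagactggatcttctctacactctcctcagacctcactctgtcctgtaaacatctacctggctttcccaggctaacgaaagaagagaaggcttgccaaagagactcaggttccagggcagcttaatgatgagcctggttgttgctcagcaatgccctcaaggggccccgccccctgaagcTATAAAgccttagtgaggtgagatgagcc
The E-box of Cck began 66 bases and its cyclic AMP core 47 bases before the start, and the TATA boxes of Gast and Dapl1 began 28 and 29 bases before it. Over the 7 genes, TGACG was found for 3 (Cck, Dapl1 and 1 of the 2 starts of Fkbp11) and in 17.8% of all 32851 windows of this length. CCACG and CCAAT were each found for Fkbp11, Nucb2 and Pappa2, and in 28.3% and 33.8% of all windows. TATAAA was found for Dapl1, Gast and Serpina7 (12.4% of all windows) and CACGTG for Cck (6.02%). A match to CACGTG can share 4 bases with one to CCACG. A match describes the letters, not a bound site.

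Across β, α, δ, PP and pooled nonendocrine cells of control 2, the measured level was highest in β cells for 7 of the 8 genes and in α cells for 1. For Gast and Cck an interval of another class reached the β level, so their highest class was not settled. Levels are plain CPM of a class with exact Poisson 95% intervals, which cover counting error only. The classes were set by hormone share, so 40 α, 34 δ, 22 PP and 62 nonendocrine cells (endothelial, leukocyte, stromal and duct) entered. Left out were 112 unclassed cells, with a median insulin share of 12.5%. In them Cck, Serpina7 and Gast stood at 59.5, 57.3 and 2.20 CPM. These levels were above those of β cells by point value, with intervals that covered the β level. Aldh1a3 stood at 132 CPM (100.8 to 170.1) there, which also covered its β level. What these cells are was not tested. RNA set free by β cells can reach other droplets, so the level that the insulin UMIs of a class would bring with them was computed for each gene, and the nonendocrine cells, where insulin was 3.95% of UMIs, served as a second background. In these cells Aldh1a3, Serpina7 and Nucb2 stood at 35.2, 16.4 and 44.6 CPM, where insulin would bring 10.1, 3.61 and 17.4 CPM. Dapl1 and Pappa2 stood at 39.9 and 32.8 CPM there, where insulin would bring 19.4 and 12.4 CPM. The intervals of these genes lay above the insulin level, and those of Fkbp11, Cck and Gast did not. Expression in nonendocrine cells was not excluded, and whether the insulin level is too low as a background was not tested.

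Aldh1a3 stood at 147 CPM (143 to 151) in β cells and at 86.3 CPM (56.9 to 125.6) in α cells, where insulin would bring 30.2 CPM. Its levels in δ (29.6 CPM), PP (24.0 CPM) and nonendocrine cells (35.2 CPM, 19.7 to 58.0) lay close together, and the α interval just overlapped that of the nonendocrine cells. Thus β cells held the highest level of these classes, and a level of α cells above background was not clear at this depth.

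Cck stood at 52.0 CPM (49.7 to 54.5) in β cells and at 3, 2, 5 and 2 UMIs in α, δ, PP and nonendocrine cells. The PP value, 24.0 CPM, had an interval of 7.78 to 55.9 CPM, which overlapped both the β level and the background. Gast had 55 UMIs in β cells (1.56 CPM, 1.18 to 2.03) and 0 in the other 4 classes, where 3 UMIs would be 7.04 to 14.8 CPM, so its restriction to β cells was not detectable at this depth. Serpina7, which encodes the thyroxine-binding globulin of serum, was at 52.3 CPM (49.9 to 54.7) in β cells and at 4.79 to 19.2 CPM in the others.

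Dapl1, a gene related by sequence to the death-associated protein family, was at 281 CPM (275 to 286) in β cells. Its next level, 98.7 CPM in δ cells (60.3 to 152), came from 20 UMIs in 5 of 34 cells and overlapped that of the nonendocrine cells (39.9 CPM, 23.2 to 63.9). Fkbp11 was at 145 CPM (141 to 149) in β cells and at 83.9 CPM (48.9 to 134) in δ cells, above the nonendocrine 21.1 CPM (9.65 to 40.1) and the 29.4 CPM that insulin would bring. Its α and PP levels (22.4 and 24.0 CPM) were at the background. By CPM, Fkbp11 was thus above the nonendocrine level and the insulin level in δ cells of control 2. Insulin was 11.6% of the UMIs of δ cells and 3.95% of those of nonendocrine cells. Whether the nonendocrine level is too low as a background for δ cells was not tested. The δ level came from 17 UMIs in 12 of 34 cells. After thinning to 1000 UMIs per cell, Fkbp11 was seen in 11.76% of δ cells (3.3 to 27.45). That interval overlapped the nonendocrine share of 3.23% (0.393 to 11.2), so a δ level above background was not settled.

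Nucb2, which encodes the calcium-binding nucleobindin 2 and precursor of nesfatin, was at 252 CPM (247 to 258) in β cells, 118 CPM (75.9 to 176) in δ cells, 95.8 CPM (58.5 to 148) in PP cells and 89.5 CPM (59.5 to 129) in α cells. The intervals of the last 3 overlapped each other, and only that of δ cells cleared the nonendocrine level of 44.6 CPM (26.8 to 69.6). The higher insulin share of δ cells bears on this comparison too, so a δ level of Nucb2 above background was not settled. Pappa2, which encodes a secreted protease that cleaves binding proteins of insulin-like growth factors, had another order. It was at 636 CPM (551 to 731) in α cells, 235 CPM (174 to 310) in PP cells, 179.9 CPM (176 to 184) in β cells and 93.7 CPM (56.4 to 146) in δ cells, against 32.8 CPM (95% interval up to 55.1) in nonendocrine cells. PP and β cells did not differ beyond their intervals. Pappa2 overlaps the noncoding gene 1600012P17Rik on the same strand, so reads of the pair could be split between them, and the other 7 genes overlap no annotated gene.

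**Figure D1:**
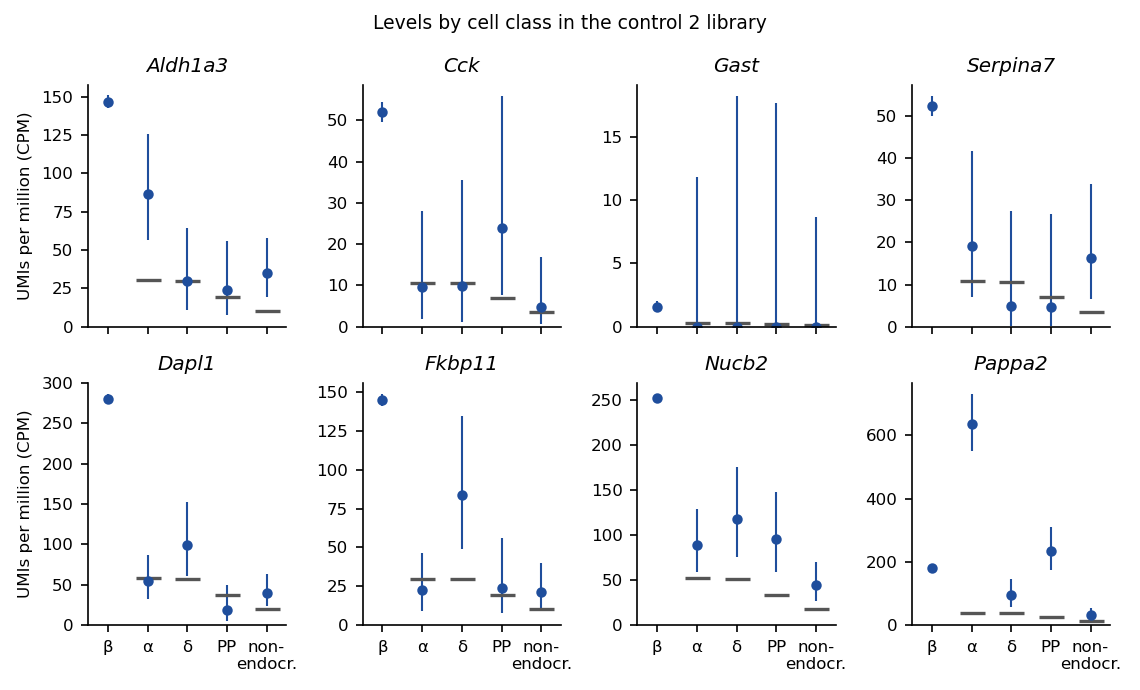
Levels of the 8 genes by cell class in control 2, in CPM (linear axis from 0, 1 panel per gene, scales differ). Points are class sums, bars are exact Poisson 95% intervals, and grey dashes mark the level that the insulin UMIs of the class would bring with them. Among the classes shown, Pappa2 is highest by point value in α cells (636 CPM) and the other 7 genes in β cells. Unclassed cells are not drawn. For Gast and Cck an interval of another class reaches the β level.

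Pappa2 was highest in α cells in the mutant libraries too. In α cells of mutant 1 and mutant 2, Pappa2 was at 304 and 413 CPM, above its β-cell level in each. The class order of Fkbp11 was another one in the mutants, where it was at 18.4 CPM (3.79 to 53.7) in PP cells of mutant 1 and 39.2 CPM (12.7 to 91.5) in those of mutant 2, from 3 and 5 UMIs, against 4.96 CPM and 6.43 CPM (4.75 to 8.49) in β cells. Nucb2 was highest in δ cells of mutant 1 (81.2 CPM from 3 UMIs) and in PP cells of mutant 2 (62.8 CPM from 8 UMIs), with intervals that overlapped its β levels of 49.7 and 51.1 CPM. Few UMIs thus set the class order of these genes in the mutants. Without thinning, a UMI of Pappa2 was found in 131 of 319 and 145 of 230 α cells of the mutants and in 38 of 40 of control 2, at median depths of 1782, 2852.5 and 6683.5 UMIs. After thinning to 1000 UMIs the shares were 27.4%, 33.0% and 50% (33.8 to 66.2).

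In β cells the levels of all 8 genes were higher in the library labelled control 2 than in either library labelled mutant. Because the genes were chosen by such levels, the ratios carry no test and nothing is read from their direction. Levels for this comparison are CPM scaled by edgeR's TMM, and ratios are log2 values with a prior count of 1. All 8 genes passed a ratio below -0.5 in both mutant libraries, a size that 1540 of the 4739 genes whose mean reached 20 CPM (32.5%) passed as well. For 678 genes (14.3%) both ratios were above 0.5, and 0 of the 8 were among them. Gast did not reach 20 CPM and the other 7 did. Of these, Cck, Serpina7, Dapl1 and Fkbp11 reached that mean only through control 2, where they are high, so nothing is read from the count.

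Aldh1a3 had 28.1 CPM in mutant 1, 28.5 CPM in mutant 2 and 193 CPM in control 2. The mutant libraries lay together, 6.88-fold (95% counting interval 6.02 to 7.89) and 6.76-fold (5.96 to 7.71) below control 2. Of the 8 genes Aldh1a3 had the smallest mean ratio in size, -2.77, and 50 of the 4739 genes had a lower one.

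For Cck the β cells of mutant 1 held 1 UMI, those of mutant 2 held 0 and those of control 2 held 1834 (68.5 CPM). Mutant 1 was 551-fold lower, with a counting interval of 98.8 to 21782.7, and mutant 2 was at least 200.6-fold lower, taking 3 UMIs per library as the floor. Gast had 0, 0 and 55 UMIs, and was at least 5.51-fold and 6.02-fold lower. The pair of related hormones was thus at or near 0 in both mutant libraries, with a much weaker bound for Gast, whose highest level was 2.05 CPM.

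Serpina7 had 1.49, 1.93 and 68.8 CPM in mutant 1, mutant 2 and control 2, from 12, 17 and 1842 UMIs. It was 46.1-fold and 35.6-fold lower, and the intervals of the mutant libraries (26.4 to 89.5 and 22.2 to 61.2) overlapped. Dapl1 had 15.3, 17.2 and 369 CPM and was 24.2-fold and 21.5-fold lower. Fkbp11 had 4.35, 5.57 and 190.5 CPM and was 43.8-fold and 34.2-fold lower. These 3 genes kept few UMIs in the mutants, 49 at most for Fkbp11 and 151 for Dapl1.

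Nucb2 had 43.6, 44.4 and 332 CPM, and was 7.61-fold and 7.48-fold lower. Pappa2 had 22.1, 18.2 and 237 CPM, and was 10.7-fold (9.22 to 12.5) and 13-fold (11.1 to 15.3) lower. For 6 genes with more than 3 UMIs in every library, the median ratio was -4.00 in mutant 1 and -4.06 in mutant 2, beside -0.19 and -0.22 over the 4739 genes. The mutant libraries differed from each other by 0.02 (Aldh1a3) to 0.36 (Serpina7) on the log2 scale for these 6 genes.

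**Figure D2:**
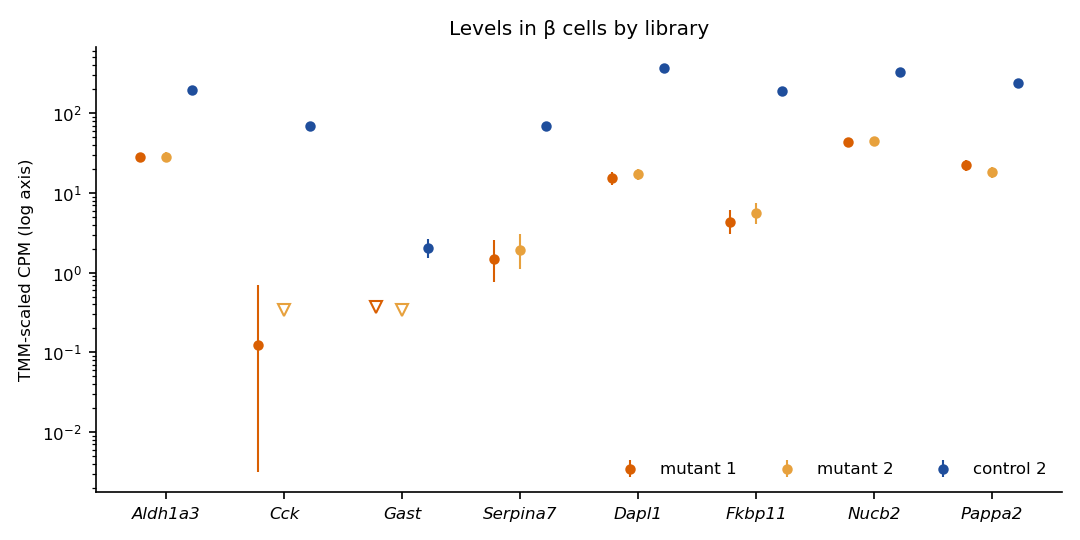
TMM-scaled CPM of the 8 genes in β cells of mutant 1, mutant 2 and control 2 (log axis). Points are library sums with exact Poisson 95% intervals, and open triangles mark the level of 3 UMIs where a library had 0. In every gene the control 2 point lies above both mutant points, from 2.05 CPM (Gast) to 369 CPM (Dapl1).

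Depth and scaling moved the size of these ratios. Among β cells of 3000 to 6000 UMIs, the mean ratio was -2.91 for Aldh1a3, -4.70 for Serpina7, -3.52 for Dapl1, -4.49 for Fkbp11, -2.09 for Nucb2 and -3.55 for Pappa2, so that Dapl1, Fkbp11, Nucb2 and Serpina7 stood nearer to 0 than over all β cells. The fitted mean ratio went from -9.22 to -6.59 for Cck and from -4.95 to -2.31 for Gast in these cells, and to -5.65 and -1.31 as a mean over cells. With at most 1 UMI in a mutant library, the fitted values of this pair depend on the prior count and are no bound. With CPM of all UMIs, which leaves the higher insulin share of control 2 in the total, 571 genes were lower and 1972 higher, and the median over all genes was 0.41 in place of -0.20. All 8 genes had a mean ratio below 0 under each of 14 alternatives.

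The shares of β cells with a UMI were compared after each cell had been thinned to 1000 UMIs, which dropped 265 and 116 mutant cells and 0 cells of the control. Nonendocrine cells, which served as background, numbered 34, 47 and 62 at this depth, with 19, 2 and 0 left out, and their median depth before thinning was 1339, 1809 and 4829.5 UMIs. Intervals of shares are exact binomial 95% intervals.

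Aldh1a3 was seen in 2.84% (2.14 to 3.69), 3.22% (2.36 to 4.29) and 15.2% (13.6 to 16.8) of the thinned β cells, in the order mutant 1, mutant 2 and control 2. In nonendocrine cells it was seen in 1 of 34 (0.0744 to 15.3), 0 of 47 (up to 7.55) and 4 of 62 (6.45%, 1.79 to 15.7). The nonendocrine interval of each mutant library covered its β share, so the 2 could not be told apart at this depth. Without thinning the β shares were 7.34%, 9.33% and 69.0%. Its UMIs in the mutants were uneven over cells, since 226 UMIs were in 159 cells of mutant 1 and single cells held up to 12 UMIs there and 14 in mutant 2.

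Nucb2 was seen in 4.42%, 4.23% and 20.02% of β cells, and in 1 of 34, 2 of 47 and 4 of 62 nonendocrine cells. Its 351 UMIs in mutant 1 were spread over 307 cells, with at most 4 in a cell. Nucb2 was thus spread thinly where Aldh1a3 was not.

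Dapl1 was seen in 1.63%, 1.79% and 20.3% (18.6 to 22.2) of β cells and in 3 of 62 nonendocrine cells of control 2 (4.84%, 1.01 to 13.5). Pappa2 was seen in 2.16%, 1.79% and 14.8% (13.3 to 16.5) of β cells, and in 1 of 62 nonendocrine cells of control 2 (1.61%). For Dapl1, Nucb2 and Pappa2 the control 2 interval lay clear of that of its nonendocrine cells.

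Fkbp11 was seen in 0.526%, 0.430% and 12.2% (10.8 to 13.8) of β cells, with an overlap of the nonendocrine interval in control 2 (0.393 to 11.2). Serpina7 was seen in 0.210%, 0.287% and 5.09% of β cells, and Cck in 0 of 1900, 0 of 1396 and 4.44%. By 3 cells of the total, a count of 0 allows shares of up to 0.158% and 0.215% in the mutants, and the exact binomial upper limits are 0.194% and 0.264%. Neither gene was seen in the 62 nonendocrine cells of control 2, which allows up to 4.84% by 3 cells of the total and 5.78% by the exact upper limit, so the background interval covers both β shares. Gast was seen in 2 of 2003 β cells of control 2 and in 0 of the mutants.

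**Figure D3:**
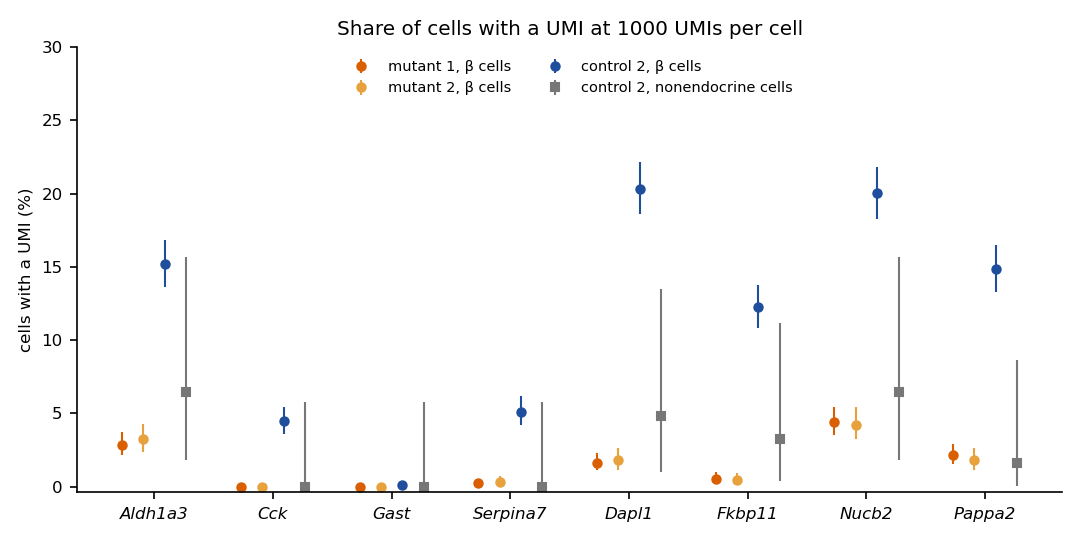
Share of cells with a UMI of each gene after thinning to 1000 UMIs per cell, for β cells of the 3 libraries (circles) and nonendocrine cells of control 2 (grey squares), with exact binomial 95% intervals. Control 2 β cells lie above both mutants for every gene, from 0.0999% for Gast to 20.3% for Dapl1. The mutant points lie within the nonendocrine intervals of control 2. Nonendocrine cells of the mutants are not drawn, so these intervals do not give the background of the mutant libraries.

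For α cells the ratio was smaller than in β cells for Pappa2 and Nucb2 and like that of β cells for Aldh1a3, and it rested on few UMIs for the rest. The α levels of Aldh1a3 and Nucb2 in control 2 were not clear of the nonendocrine level. Insulin was 11.8% of the UMIs of these α cells. The part of β-cell RNA in the α ratios of Aldh1a3 and Nucb2 was not tested. The ratios of δ cells all rested on few UMIs. In α cells 4 of the 8 genes reached a mean of 20 CPM, and 4 of these 4 were below -0.5 in both mutant libraries, beside 835 of 6126 genes (13.6%). Aldh1a3 and Dapl1 reached that mean only through control 2, where they are high, so nothing is read from the count. The levels below are TMM-scaled within α cells. Only 40 α cells of control 2 entered, against 319 and 230 in the mutants.

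Pappa2 had 310 and 405 CPM in α cells of mutant 1 and mutant 2 and 634.5 CPM in control 2, from 198, 297 and 199 UMIs. It was 2.05-fold (1.67 to 2.50) and 1.57-fold (1.30 to 1.88) lower, whereas in β cells it was 10.7-fold and 13-fold lower. In PP cells Pappa2 had 26, 32 and 49 UMIs and was 2-fold (1.22 to 3.35) and 1.32-fold (0.828 to 2.13) lower. The counting intervals of α and PP cells thus did not reach those of β cells for this gene.

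Nucb2 had 32.9, 35.5 and 89.3 CPM in α cells and was 2.71-fold (1.49 to 5.03) and 2.52-fold (1.42 to 4.47) lower. Aldh1a3 had 11.0, 10.9 and 86.1 CPM there, from 7, 8 and 27 UMIs, and was 7.85-fold (3.33 to 21.4) and 7.89-fold (3.49 to 20.1) lower. Dapl1 had 9, 11 and 17 UMIs, and its control 2 level of 54.3 CPM in plain CPM was below the 57.8 CPM that insulin would bring. Fkbp11, Serpina7, Cck and Gast had at most 7 UMIs in α cells of any library.

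In δ cells, Fkbp11 had 0, 0 and 17 UMIs and was at least 1.59-fold and 3.01-fold lower, and Nucb2 had 3, 4 and 24 UMIs. Aldh1a3 had 1, 2 and 6 UMIs there and was 1.685-fold (0.204 to 77.5) and 1.59-fold (0.285 to 16.1) lower. Pappa2 had 1, 2 and 19 UMIs and was 5.34-fold (0.848 to 222) and 5.04-fold (1.22 to 44.6) lower. The δ intervals of Aldh1a3, Nucb2 and Pappa2 reached those of β cells. In PP cells Fkbp11 had 3, 5 and 5 UMIs and was 1.77-fold lower (0.344 to 11.4) in mutant 1. Mutant 2 was above control 2 by point value (34.5 against 29.7 CPM), which is 0.861 as a fold lower (0.198 to 3.74). No difference was thus detectable for Fkbp11 in PP cells. The δ and PP cells of a library numbered 22 to 58 and bound these values.

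The genes that work with the 8 were counted in β cells from lists chosen with earlier results known, and none of the counts carries a test. Over all 4739 genes, 32.5% were lower and 14.3% higher in both mutants. With CPM of all UMIs, 571 of 4724 genes (12.1%) were lower and 1972 higher. For Aldh1a3, 1 of 19 genes of retinoic acid synthesis, binding, reception and breakdown reached 20 CPM. That gene was Rara, a retinoic acid receptor, at 30.4, 25.4 and 8.17 CPM in mutant 1, mutant 2 and control 2, with ratios of 1.89 and 1.63. The other enzymes of the family were scarce, with 21 UMIs of Aldh1a1 and 4 of Aldh1a2 in control 2 β cells against 5171 of Aldh1a3.

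For Cck and Gast, 5 of 8 genes of receptors, peptide processing and sulfation reached 20 CPM, of which 2 were lower and 0 higher in both mutants, or 1 and 2 with CPM of all UMIs. Pam, which amidates the shared carboxy-terminal end, was at 210.2, 209 and 812 CPM, with ratios of -1.95 and -1.96. Pcsk1, a prohormone convertase, had ratios of -0.97 and -1.01. Cpe, the carboxypeptidase that trims the cut ends, had 0.12 and 0.01, and Pcsk2 had -0.44 in both, a value that became positive with CPM of all UMIs. The receptors Cckar and Cckbr had 4 and 3 UMIs in control 2.

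For Serpina7, 5 of 9 thyroid hormone genes reached 20 CPM, 2 lower and 1 higher (2 and 2 with CPM of all UMIs). Ttr, which encodes transthyretin, another thyroxine carrier, had 546, 607 and 2571 CPM and ratios of -2.24 and -2.08. Dio1, a deiodinase, had ratios of -1.77 and -1.60, and the receptor gene Thra 1.44 and 1.11. The transporter gene Slc16a10 had -0.47 and -0.40, and these became positive with CPM of all UMIs and in cells of 3000 to 6000 UMIs.

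For Fkbp11, 24 of 27 ER folding genes reached 20 CPM, 19 lower and 1 higher, with median ratios of -1.39 and -1.27. With CPM of all UMIs 13 of 24 were lower and 2 higher. Hspa5, the main ER chaperone BiP, had 772.5, 793 and 2281 CPM and ratios of -1.56 and -1.52, and Hsp90b1 had -1.08 and -0.95. Ero1b, an oxidase of the β-cell ER, went the other way with 1.13 and 0.94, and Manf, a secreted ER stress protein, had 0.33 and 0.11. Fkbp11 itself had -5.43 and -5.08, and the lowest of the 24, Sdf2l1, had -3.14 and -2.88. Fkbp11 was chosen by its levels and Sdf2l1 was picked after its values were seen, so nothing is read from their order.

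For Nucb2, its paralog Nucb1 had 76.5, 83.4 and 187 CPM and ratios of -1.29 and -1.16, beside -2.93 and -2.90 for Nucb2. Because Nucb2 was chosen by its levels, nothing is read from this difference in size. In cells of 3000 to 6000 UMIs Nucb1 did not pass -0.5 in both mutants. For Pappa2, 2 of 14 genes of the insulin-like growth factor system reached 20 CPM, 0 lower and 1 higher. Igf1r, the receptor, had ratios of 0.93 and 0.78, and Igfbp7 had -0.64 and -0.29, which turned positive with CPM of all UMIs and in cells of 3000 to 6000 UMIs. The related protease gene Pappa, which did not reach 20 CPM, was at 5.09, 5.46 and 1.72 CPM, with ratios of 1.53 and 1.63.

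The name given to the 8 genes was set beside other genes of the same kind. Of 11 further genes linked to dedifferentiation, 4 reached 20 CPM, 3 lower and 0 higher in both mutants, with ratios of -3.38 and -3.16 for Gc, -1.93 and -2.24 for Bach2, -1.43 and -1.38 for Nupr1 and -0.56 and -0.48 for Cd81, whose values turned positive with CPM of all UMIs and in cells of 3000 to 6000 UMIs. Gc and Bach2 reached 20 CPM mainly through control 2, at 192 and 43.3 CPM there, so nothing is read from this count. The progenitor genes Neurog3 and Sox9 had 20 and 14 UMIs in control 2 β cells. Their ratios were above 0, at 0.68 and 0.69 for Neurog3 and 0.67 and 0.89 for Sox9, on few UMIs. Of the rest under 20 CPM, Mycl had ratios above 0, Slc5a10, Gabra4 and Fabp5 below 0, and Vim 1 of each sign. Of 14 β-cell identity genes, 7 were higher and 2 lower in both mutants, beside 14.3% and 32.5% of all 4739 genes. With CPM of all UMIs these counts were 9 and 0, a scaling under which 1972 of 4724 genes were higher. The ratios were 2.14 and 1.99 for Mafa, 0.96 and 0.86 for Nkx6-1, 0.43 and 0.24 for Iapp and -0.91 and -0.81 for G6pc2. In control 2, where the 8 genes were highest, the median insulin share of a β cell was also the highest of the 3 libraries. The 8 genes were thus high in the library with the most insulin per β cell and lower Mafa, and whether its cells were stressed or dedifferentiated was not measured.

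Variation among single cells was described in β cells of control 2 thinned to 5000 UMIs, which kept 1681 of 2003 cells. Cck was in 234 of these cells, Serpina7 in 309, Aldh1a3 in 748, Fkbp11 in 781, Pappa2 in 864, Dapl1 in 933, Nucb2 in 1101 and Gast in 15. Of the 8 genes, 453 cells held a UMI of 3, 406 of 4, 395 of 2 and 39 of 0, and 1 cell held all 8.

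Cck was the most uneven of them. A single cell held up to 18 of its UMIs at this depth, its variance was 3.75 times its mean, and the median of that ratio over 2629 genes with a mean within 2-fold was 1.08. Over all β cells without thinning, 62.8% of its UMIs were in the 5% of cells richest in it. The ratio of variance to mean was 2.97 for Dapl1 (1.18 over genes of like mean), 2.19 for Aldh1a3 (1.14), 1.85 for Serpina7 (1.07) and 1.64 for Pappa2 (1.15). For Fkbp11 (1.27 beside 1.13) and Nucb2 (1.27 beside 1.18) it was near that of genes of like mean.

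How far counting noise limits a correlation was measured by drawing 2 separate sets of 5000 UMIs from each of the 1380 cells with at least 10000 UMIs. A gene's log count in one set was then correlated with its own log count in the other. Pearson's r was 0.61 for Cck, 0.51 for Dapl1, 0.40 for Aldh1a3, 0.40 for Serpina7, 0.28 for Pappa2, 0.16 for Fkbp11, 0.15 for Nucb2 and -0.01 for Gast, beside 0.99 for Ins1, 0.78 for Chga and 0.47 for Mafa. The sets share the cell and the library. Differences between cells in Cck, Dapl1, Aldh1a3 and Serpina7 were thus seen again in the other set, and those in Gast were not.

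Between Cck, Dapl1, Aldh1a3 and Serpina7, r was far smaller than with themselves, and the 6 pairs among them lay between -0.02 and 0.07 across the same sets. The highest of all pairs was 0.14, for Fkbp11 and Dapl1, beside 0.16 for Fkbp11 with itself, and Nucb2 had 0.11 with Cck beside 0.15 with itself. For Fkbp11, Nucb2 and Gast the r with itself was already low, so a low r with another gene does not show a lack of relation. Within a single set of 5000 UMIs over the 1681 cells, the 28 pairs had a median r of 0.029 and ranged from -0.04 (Fkbp11 and Aldh1a3) to 0.12 (Nucb2 and Cck). In sparse counts a weak correlation is no finding, and all cells come from 1 library, so no p is given. Without thinning, the highest pair was 0.23, for Nucb2 and Fkbp11, and at 10000 UMIs it was 0.19, for Fkbp11 and Dapl1.

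Shares of cells gave the same picture. Among the 748 cells with Aldh1a3, 17.1% held Cck, beside 11.4% of the 933 cells without it, and 19.9% beside 17.1% held Serpina7. Dapl1 was in 55.6% of cells with Aldh1a3 and in 55.4% of those without, and Nucb2 in 64.97% and 65.9%. The gap was thus widest for Cck among the genes given here, and near 0 for Dapl1 and Nucb2.

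**Figure D4:**
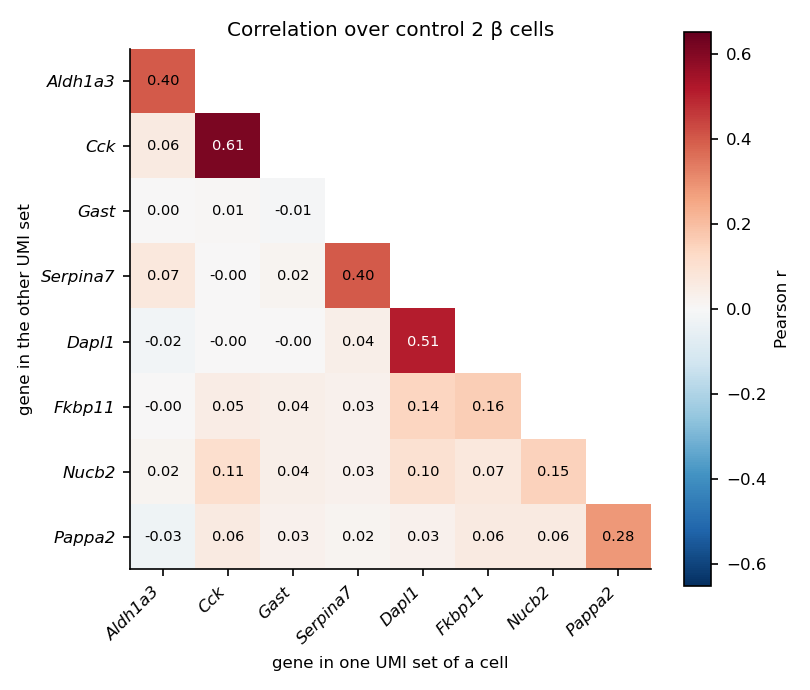
Pearson r of log UMI counts over 1380 control 2 β cells, between 2 separate sets of 5000 UMIs drawn from each cell (rows against columns, colour scale from -0.65 to 0.65). The diagonal gives each gene with itself, up to 0.61 for Cck, and the cells off the diagonal give pairs of genes, up to 0.14.

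The genes most like each member were sought among 4369 genes with at least 0.1 UMI per cell, by Pearson's r over the 1681 cells. For Aldh1a3 these were Iapp (0.28), Chga (0.27), Eef2 (0.17), Rack1 (0.16) and Manf (0.16), and the least like were Ins1 (-0.20), Ins2 (-0.16) and mt-Co2 (-0.15). Iapp encodes the amyloid peptide that is secreted with insulin, and Chga the granule protein chromogranin A. By r, Aldh1a3 thus went with a pair of granule products and against both insulin genes, although each r is low. Insulin was 57.2% of the UMIs of control 2 β cells and was kept in the thinning. A cell with more insulin UMIs therefore has fewer left for other genes, and the part of this in the negative r was not tested.

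Cck was most like Chgb (0.20), another granin gene, and Iapp (0.17). Serpina7 was most like Scg3 (0.14), a gene of granule formation, and Rps23 (0.12). Dapl1 was most like Ttr (0.19) and G6pc2 (0.17), and Fkbp11 like Rps28 and Ssr4 (both 0.13). Nucb2 was also like Ssr4 (0.16), which encodes part of the translocon complex that brings proteins into the ER, and Pappa2 was most like Malat1 and Ubr4 (both 0.15). Gast was too scarce to rank.

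The summed UMIs of the 14 β-cell identity genes, most of which are Iapp, had an r of 0.28 with Aldh1a3, 0.16 with Cck, -0.13 with Dapl1 and -0.18 with Fkbp11. For Mafa, Ucn3, Slc2a2, Nkx6-1 and Pdx1, r with the 8 genes lay between -0.13 (Mafa with Serpina7 and with Nucb2) and 0.07 (Nkx6-1 with Aldh1a3). With Hspa5, r was between 0.01 (Gast) and 0.14 (Dapl1). These values are low, and no relation to single identity genes or to BiP is read from them at this depth.

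The insulin share of a cell split the 8 genes. The 2003 β cells of control 2 were divided in 3 by insulin share, with a median share of 41.7%, 55.1% and 64.5% and a median depth of 8406, 17544 and 23297.5 UMIs, and levels were taken as CPM of the UMIs other than insulin. Dapl1 was at 344, 550.2 and 1002 CPM from the lowest to the highest group, Fkbp11 at 198, 309 and 476, and Nucb2 at 438.5, 564 and 729.8. These genes were thus higher in cells with more insulin.

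Cck was at 182.5, 114 and 82.8 CPM and Aldh1a3 at 415, 329.9 and 301, which is the opposite order. Pappa2 rose from 386 and 399 to 469, Serpina7 was at 126, 115.5 and 126, and Gast was at 4.61, 2.34 and 4.26. No intervals were computed for these levels, so all orders are by point value. Depth rose with insulin share over these cells, and its part in the order was not tested. By point value, genes that were low together in the mutant libraries therefore took different sides within control 2.

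**Figure D5:**
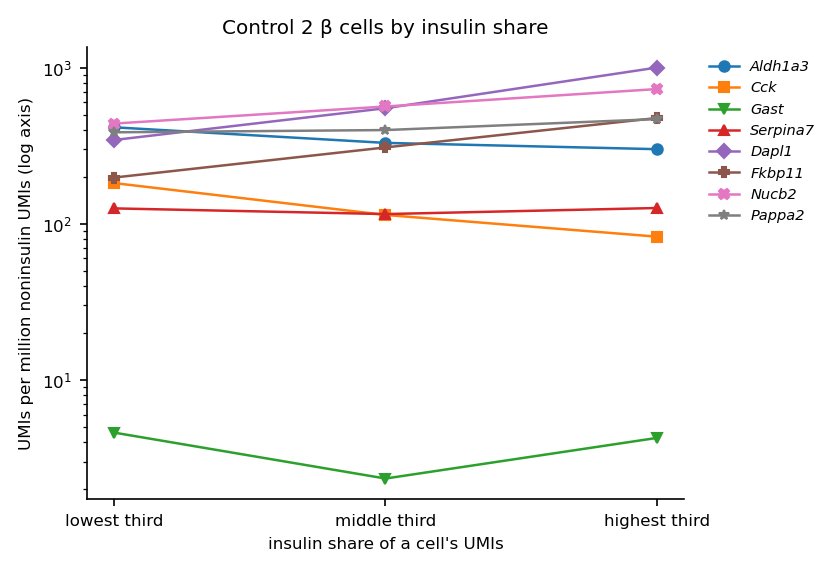
Levels of the 8 genes in CPM of the UMIs other than insulin (log axis), in control 2 β cells split in 3 by insulin share, with 668, 667 and 668 cells. Dapl1 lies at 344 in the lowest and 1002 in the highest group, and Cck at 182.5 and 82.8.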

How the data were processed

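Islet cells of 2 mutant and 2 control samples were labelled, and matrices of 3 libraries were read. DropEst was used by the authors to obtain UMI counts, which were deposited as whole numbers with no normalization. The submitters' processing notes name Seurat and GRCm39. Cells with under 500 UMIs, under 100 genes or over 10% mitochondrial UMIs were left out. β cells had at least 20% of UMIs from Ins1 and Ins2 and under 5% from each other hormone. α, δ and PP cells had at least 5% from their own hormone, cells with 2 such hormones were set aside, and no doublet caller was run. The 49 to 62 nonendocrine cells of a library held at least 3 genes of a nonendocrine marker list and at least 1% of UMIs from it. UMIs were summed per class and library and scaled by TMM in edgeR 4.0.16 (R 4.3.3). For log2 ratios against control 2, the prior count was 1. Summed over all kept cells, mutant 1 and mutant 2 differed beyond counting noise (chi-square 5.67 per degree of freedom over 14301 genes). UMIs of a cell are not independent, so this value cannot show whether the libraries came from separate pools of islets. They count as 2 samples by their labels. With 1 control library, no test or p-value was computed. Thinning drew UMIs without replacement with a fixed seed. The ratio step, with plain library totals in place of TMM, and the thinning were tested on simulated data. The TMM scaling was not tested in that way. Python 3.11.15, numpy 2.4.6 and scipy 1.17.1 were used.

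The members, the lists and the rules for named genes were chosen with earlier results of these data known. All 8 members are named, with the 2 to 4 genes of each list highest in mean CPM among those at 20 CPM, and for each member the genes with the highest r as stated, of which 1 is not reported here. Genes outside these rules were named after their values were seen. Alternatives covered scaling (DESeq2 1.42.0 size factors, CPM), depth, cell classes, filters, the prior count and the omission of either mutant library. TMM over genes with at least 10 UMIs in every library, and leaving out β cells with at least 2 acinar UMIs, were chosen after seeing the data.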

Additional observations from a re-analysis of the deposited data

How the results depend on the processing

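The median ratio of the 6 genes with more than 3 UMIs in every library, -4.03 as the mean of both mutants, was -3.44 with CPM of all UMIs, -3.96 with DESeq2 size factors, -3.79 with CPM without hormone and mitochondrial genes, -3.54 in β cells of 3000 to 6000 UMIs, -3.99 with either other class rule, -3.44 as a mean over cells and, chosen after seeing the data, -3.84 with TMM over genes with at least 10 UMIs in every library and -3.97 without β cells that hold acinar UMIs. Without mutant replicate 1 or 2 it was -4.06 and -4.00. The number of the 8 genes below -0.5 in both mutants stayed at 8 throughout. The number of all genes below -0.5, 1540, was 571 with CPM of all UMIs, 822 at 3000 to 6000 UMIs, 7310 without a minimum level, 593 at a mean of at least 50 CPM and 603 as a mean over cells. Leaving out a mutant library gave 1661 and 1707. In α cells, which needed at least 5% of UMIs from their own hormone, the median ratio of Aldh1a3, Dapl1, Nucb2 and Pappa2 was -1.56. It was -1.65 with a limit of 2%, -0.99 with the more demanding limit of 10% and -1.29 as a mean over cells.

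The median r of the 28 pairs, 0.029, was 0.005 to 0.045 under the alternatives in control 2 and 0.002 in each mutant at 2000 UMIs, over 21 and 15 pairs that had UMIs. Among β, α, δ and PP cells, the number of genes highest in β cells by point value, 7, was 6 with limits of 30% for insulin and 2% for the other hormones. That rule asks less of α, δ and PP cells, and under it Cck was higher in another class. No paired analysis was possible because 1 control library was analysed, so the genotypes share 1 replicate number. The depth of the mutant β cells, the 22 to 40 α, δ and PP cells of control 2 and the single control library limit the values. The sample labels and the methods differ on diet and platform, and neither was settled here.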
